A study of Mus musculus with 7 samples.

Results

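The genes described here encode subunits of the receptors for glutamate and for gamma-aminobutyric acid (GABA), the main excitatory and the main inhibitory transmitter of the brain. There were 42 of them, taken by symbol from a list of receptor genes, among the 21887 protein-coding genes that the RefSeq table of GRCm38.p6 (the build also called mm10) places on the chromosomes of the deposited list. Each was set against the lamin-associated domains (LADs) of mouse embryonic fibroblasts, stretches of chromatin at the nuclear lamina, and was either wholly inside a LAD, cut by a LAD border, or outside with a distance to the nearest border.

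The study used CUT&RUN, in which an antibody directs a nuclease to release the DNA around its target, on fibroblast lines named iMEF that were derived independently from 1 mouse colony. It had 7 libraries, 2 each for Lamin B1 and for the IgG control, 1 with each of 2 H3K9me2 antibodies, and 1 for H3K14ac. The name of the list gives wild type and merged, and no treatment, sex or embryonic stage is given in the labels. The 1437 LADs used here are 1 merged list without a signal per domain, so the read depth is unknown, no placement has a replicate error, and no test between conditions was possible. A merged list also does not tell how many cells or alleles held a region at the lamina, and since it holds no expression values, neither the fibroblast identity nor the activity of any receptor gene was checked.

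Ionotropic glutamate receptors comprise the AMPA, kainate and NMDA receptors, which are ion channels opened by glutamate, and the delta receptors, which are related to them by sequence. Metabotropic glutamate receptors and GABA-B receptors act through G proteins, and GABA-A receptors are chloride channels, many of whose subunit genes stand in clusters. These receptors are known for synaptic transmission in neurons, and Lamin B1 is a filament protein of the lamina, where much of the chromatin that a cell does not use is held.

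Of the 42 receptor genes, 19 lay wholly inside a LAD, 4 were cut by a border and 19 lay outside. That is 45.2% inside, 9.52% cut and 45.2% outside. Over all protein-coding genes, 21.8% were inside, 3.36% cut and 74.9% outside. By the midpoint of the gene, 23 of the 42 (54.8%) were in a LAD, against 23.8% of all protein-coding genes. The receptor genes together spanned 10199 kb, of which 8304 kb, or 81.4%, was LAD, whereas 34.1% of the summed length of all protein-coding genes was. These shares describe 42 genes that were named with results of these data known, and no test was made of them.

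The counts by receptor class stand against 23.8% of all protein-coding genes with their midpoint in a LAD. All 4 AMPA receptor genes and the delta receptor gene Grid1 were in a LAD by their midpoint. Of the kainate receptor genes 2 of 5 were, of the NMDA receptor genes 3 of 7, of the metabotropic glutamate receptor genes 4 of 7, and of the GABA-A receptor genes 9 of 16 with the rho subunits counted. Neither of the 2 GABA-B receptor genes touched a LAD. With 16 genes or fewer in a class, these counts are given as a description.

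**Figure D1:**
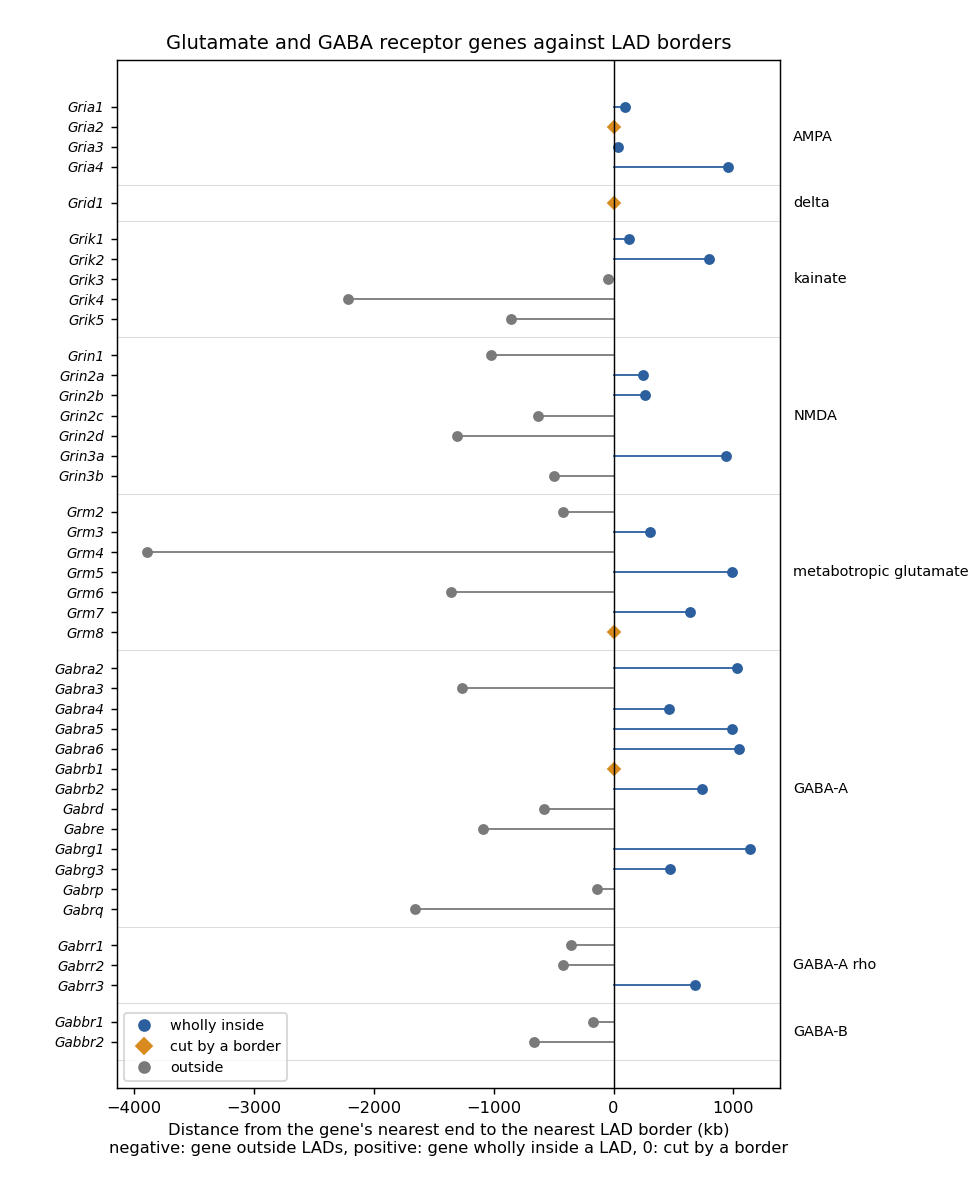
Distance in kb from the nearest end of each of the 42 receptor genes to the nearest LAD border, by receptor class, with genes outside LADs to the left of 0, genes wholly inside to the right and the 4 genes cut by a border at 0. Inside distances run from 33.1 kb (Gria3) to 1136 kb (Gabrg1), and outside distances from 43.9 kb (Grik3) to 3888 kb (Grm4).

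AMPA receptors carry most fast excitatory transmission. Gria4 lay deepest of their genes, 953.8 kb from the nearest border of a LAD of 2515 kb on chromosome 9. Gria1 was 92.7 kb from the end of a LAD of 1845 kb on chromosome 11. Gria3, on X, filled 48.1% of a LAD of 577.5 kb that held no other protein-coding midpoint, and ended 33.1 kb from its border. Gria3 was thus the receptor gene inside a LAD with the shortest distance to a border, and its LAD was the shortest that held one whole.

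Gria2, whose subunit controls the calcium permeability of AMPA receptors, was the member of this class cut by a border (chr3:80681450-80804227). Its LAD (chr3:80120857-80775854) covered 94.4 kb, or 76.9% of the gene, and left 28.4 kb at the high-coordinate end outside. The gene is on the minus strand, so its start, at position 80802835, was outside, 27.0 kb from the border, while the rest of the gene ran into the LAD. With LADs extended by 50 kb at both ends, an alternative added after the data were seen, the start and the whole gene were inside. The RefSeq promoter window of 300 bases, 250 before the start and 50 after it, is shown because it lies on the other side of the border from most of its gene (chr3:80802786-80803085, minus strand), and capitals mark CG dinucleotides here and in the sequences that follow.
Gria2: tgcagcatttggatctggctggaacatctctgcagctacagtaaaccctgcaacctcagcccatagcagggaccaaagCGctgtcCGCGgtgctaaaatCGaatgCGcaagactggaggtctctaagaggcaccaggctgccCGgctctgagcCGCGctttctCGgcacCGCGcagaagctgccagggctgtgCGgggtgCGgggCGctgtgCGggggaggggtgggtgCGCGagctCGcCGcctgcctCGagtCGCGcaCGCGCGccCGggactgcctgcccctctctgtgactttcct

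The delta receptor gene Grid1 (chr14:34820003-35583387) was cut as well. It measured 763.4 kb, and 662.2 kb of it, or 86.7%, was in a LAD of 1825 kb (chr14:34921211-36746205), with the first 101.2 kb at the low-coordinate end outside. Delta subunits are known as organisers of synapses.

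The kainate receptor genes fell on both sides. Grik1 and Grik2 were inside, Grik1 at 131.5 kb from a border and Grik2 at 793.3 kb. The LAD of Grik2 (5392 kb) was the longest that touched a receptor gene. Grik3, Grik4 and Grik5 were outside. Grik1 to Grik3 encode subunits that can form channels by themselves, and Grik4 and Grik5 those that need one of the former.

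Grik3 (chr4:125490259-125714173) was the receptor gene outside LADs nearest to one, 43.9 kb from a LAD of 67.5 kb. Its start was at the other end of the gene, 267.3 kb from a border. Grik4 (chr9:42518182-42945000) was 2217 kb from the nearest LAD in a gap of 6235 kb, the second farthest of the 19 outside. At 426.8 kb it was also the longest receptor gene outside LADs.

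NMDA receptors need the Grin1 subunit together with Grin2 or Grin3 subunits. Grin1 (chr2:25291177-25319187) was outside, 1021 kb from the nearest LAD, in a gap of 12032 kb with 259 protein-coding genes. The Grin2 genes, which encode the glutamate-binding subunits, were split. Grin2a was inside a LAD of 1292 kb at 243.6 kb from its border, and Grin2b filled 46.7% of a LAD of 985.0 kb at 258.1 kb from its border.

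Grin2c and Grin2d were outside, at 628.9 and 1309 kb. Grin2c (18.1 kb) lay beyond the last LAD of chromosome 11, and Grin2d (39.3 kb; chr7:45831883-45871194) was among the 5 receptor genes farthest from a LAD. The 2 genes of the glycine-binding Grin3 subunits were split in the same way, with Grin3a 940.8 kb inside a LAD of 4385 kb and Grin3b 494.6 kb outside. In each subfamily the longer genes were the ones inside. Grin2a, Grin2b and Grin3a measured 428.2, 460.4 and 184.4 kb, and Grin1, Grin2c, Grin2d and Grin3b between 6.79 and 39.3 kb.

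The promoter window of Grin1 (chr2:25319138-25319437, minus strand) is shown because it had the highest ratio of observed to expected CpG of the 32 receptor genes with a matched window. It held 33 CG dinucleotides, 1.20 times the number expected from its C and G content, and by count alone Grik3 (50), Gabbr2 (46) and Grik4 (42) had more.
Grin1: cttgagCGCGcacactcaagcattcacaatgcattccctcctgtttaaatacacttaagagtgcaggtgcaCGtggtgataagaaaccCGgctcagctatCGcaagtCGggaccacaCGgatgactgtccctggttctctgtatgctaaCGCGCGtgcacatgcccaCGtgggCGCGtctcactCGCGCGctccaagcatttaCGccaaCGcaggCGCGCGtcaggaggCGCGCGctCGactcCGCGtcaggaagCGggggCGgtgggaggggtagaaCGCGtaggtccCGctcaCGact

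Metabotropic glutamate receptors fall into group I, of which Grm5 is a member, group II with Grm2 and Grm3, and group III with Grm4, Grm6, Grm7 and Grm8. Grm5 (chr7:87583981-88135063) was 987.3 kb inside a LAD of 4375 kb. Grm7, at 921.9 kb the longest of the 42 genes, was 634.6 kb inside a LAD of 3267 kb (chr6:108934303-112201792) in which it was the only protein-coding gene by midpoint. Groups II and III each had genes on both sides.

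Grm8 (chr6:27275121-28135146) was cut. Its LAD of 2240.0 kb (chr6:25809566-28049558) covered 774.4 kb, or 90.0%, of the 860.0 kb gene. The gene is on the minus strand, and its 3 RefSeq starts all lay outside, 76.9, 84.9 and 85.6 kb from the border. As in Gria2, the starts were outside and most of the gene inside.

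Grm4 (chr17:27422387-27513826) was the farthest of all receptor genes from a LAD, 3888 kb, in a gap of 12935 kb with 421 protein-coding genes. Grm6 (chr11:50850369-50866208), the receptor of retinal ON bipolar cells, was 1357 kb from the nearest LAD. Both belong to group III, as do Grm7 and Grm8.

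In group II, Grm3 was inside and Grm2 outside. Grm3 (chr5:9485236-9725352) was 303.0 kb from the border of a LAD of 2820.0 kb (chr5:9182284-12002274). Grm2 (chr9:106644534-106656109) was 425.1 kb from a LAD, in a gap of 960.0 kb with 28 protein-coding genes. Grm3 measured 240.1 kb and Grm2 11.6 kb. The promoter windows of this pair (Grm2 chr9:106656060-106656359 and Grm3 chr5:9725303-9725602, both minus strand) are shown because the pair lies on both sides of LAD borders. Grm2 had 22 CG dinucleotides, 0.641 of the number expected from its C and G content, and Grm3 had 11, or 0.362.
Grm2: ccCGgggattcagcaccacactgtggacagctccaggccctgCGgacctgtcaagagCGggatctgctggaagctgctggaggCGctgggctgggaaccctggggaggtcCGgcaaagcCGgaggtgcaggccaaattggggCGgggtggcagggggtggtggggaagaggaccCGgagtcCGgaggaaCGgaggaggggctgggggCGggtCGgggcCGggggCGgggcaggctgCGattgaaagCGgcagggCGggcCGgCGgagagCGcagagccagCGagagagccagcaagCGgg
Grm3: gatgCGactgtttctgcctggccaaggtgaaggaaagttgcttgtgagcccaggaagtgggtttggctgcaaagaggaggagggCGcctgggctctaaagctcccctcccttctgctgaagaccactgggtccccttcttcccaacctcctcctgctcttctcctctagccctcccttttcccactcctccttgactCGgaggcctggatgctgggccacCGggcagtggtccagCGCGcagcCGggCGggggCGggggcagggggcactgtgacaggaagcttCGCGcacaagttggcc

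GABA-A receptor genes stand in clusters, and 5 sets of 2 to 4 of the genes lay within 1 Mb of each other. Each set was on 1 side of the LAD borders except that of chromosome 5, where 3 genes were inside and the fourth was cut. Genes of a set share their LAD or gap and are not independent of each other. The 13 genes of these sets count as 5 positions.

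The set on chromosome 5 comprised Gabrg1, Gabra2, Gabra4 and Gabrb1 (chr5:70751047-72149572), of which 98.2% was in 1 LAD of 2510.0 kb (chr5:69614592-72124583). Gabrg1 (chr5:70751047-70842617) was 1136 kb from a border, the deepest of all receptor genes. Gabra2 (chr5:70958392-71095849), at 1029 kb, was the third deepest, and Gabra4 (chr5:71569734-71658308) was at 466.3 kb. These 4 genes and Cox7b2 were the 5 protein-coding genes of the LAD by midpoint.

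Gabrb1 (chr5:71657921-72149572) ran out of this LAD. It is on the plus strand, and both of its RefSeq starts were inside, the first of them 466.7 kb from the border, with 94.9% of the gene. The last 25.0 kb were outside. Gabrb1 thus differed from Gria2 and Grm8, in which the starts were the part outside. For Grid1, no RefSeq promoter was matched.

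The promoter window of Gabra2 (chr5:71095800-71096099, minus strand) is shown as a CpG-rich start deep inside a LAD, 1029 kb from the border, and was picked after its values were seen. It held 25 CG dinucleotides, 0.721 of the number expected.
Gabra2: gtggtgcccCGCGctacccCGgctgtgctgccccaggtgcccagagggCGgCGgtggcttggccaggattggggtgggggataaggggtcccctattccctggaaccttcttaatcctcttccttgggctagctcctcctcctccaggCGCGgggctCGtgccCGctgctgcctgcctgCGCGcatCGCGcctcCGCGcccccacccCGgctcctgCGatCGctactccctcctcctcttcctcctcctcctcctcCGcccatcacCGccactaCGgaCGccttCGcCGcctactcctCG

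On chromosome 7, Gabrg3 (chr7:56716463-57387215) and Gabra5 (chr7:57407669-57591016) were 474.0 and 991.4 kb inside a LAD of 2340.0 kb (chr7:56242450-58582441). On chromosome 11, Gabra6 (chr11:42306437-42321072) and Gabrb2 (chr11:42419515-42632591) were 1049 and 737.9 kb inside a LAD of 2552 kb (chr11:40818045-43370536). Gabra6, a subunit of cerebellar granule cells, measured 14.6 kb and was the only receptor gene under 50 kb in a LAD. The 2 sets were wholly covered.

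The set on X was wholly outside. Gabre (chrX:72256926-72274828), Gabra3 (chrX:72432676-72656919) and Gabrq (chrX:72825163-72842607) shared a gap of 5067 kb (chrX:71169105-76236588) with 95 protein-coding genes, at 1088, 1264 and 1656 kb from the nearest LAD, which measured 60.0 kb. Gabra3 encodes an alpha subunit like Gabra2, Gabra4, Gabra5 and Gabra6, and was the one alpha gene of the list outside LADs. Its length of 224.2 kb was in the range of the genes inside.

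The promoter window of Gabra3 (chrX:72656870-72657169, minus strand) is shown because it held no CG dinucleotide, and so had the lowest count and the lowest ratio of the 32 receptor genes with a matched window.
Gabra3: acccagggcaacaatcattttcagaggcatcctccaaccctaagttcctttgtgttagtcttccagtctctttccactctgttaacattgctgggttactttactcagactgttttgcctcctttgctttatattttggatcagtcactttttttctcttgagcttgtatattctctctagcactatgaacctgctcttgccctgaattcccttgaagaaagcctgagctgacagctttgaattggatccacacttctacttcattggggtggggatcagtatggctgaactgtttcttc

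**Figure D2:**
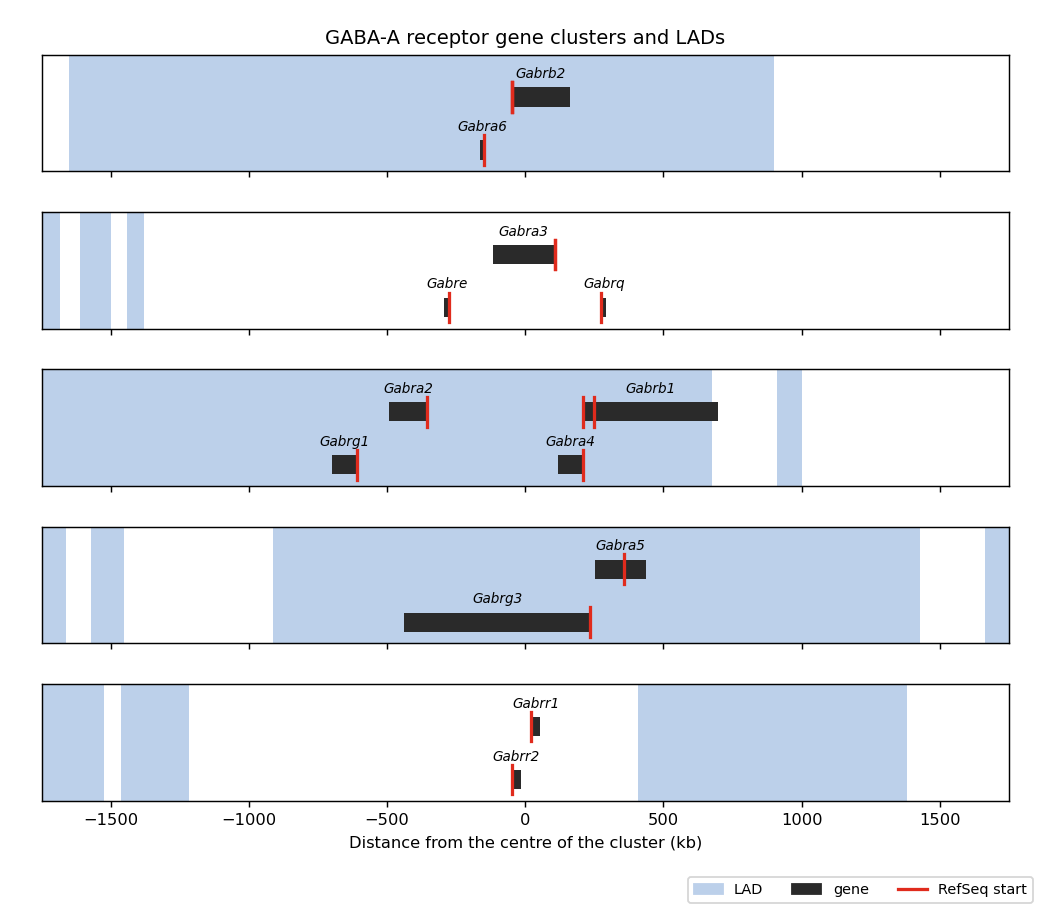
Maps of the 5 sets of neighbouring GABA-A receptor genes (black bars) with LADs (blue) and RefSeq starts (red), in kb from the centre of each set. The sets of Gabra6, of Gabrg1 and of Gabrg3 lie in a LAD, with the end of Gabrb1 past the border, and those of Gabra3 and of Gabrr1 lie in gaps.

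The rho subunits form the GABA receptors of the retina. Gabrr2 (chr4:33057712-33095865) and Gabrr1 (chr4:33132556-33163588) were neighbours in a gap of 1625 kb, 422.5 and 354.7 kb from the nearest LAD. Gabrr3, on chromosome 16, was 682.9 kb inside a LAD of 4007 kb. Gabrr3, at 54.4 kb, was the longest of the rho genes, and Gabrr1 and Gabrr2 measured 31.0 and 38.2 kb.

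Gabrd (chr4:155384979-155398098), a subunit of extrasynaptic receptors, was 582.0 kb outside. Gabrp (chr11:33550781-33578978) was 140.2 kb outside, in a gap of 537.5 kb with 2 protein-coding genes. The GABA-B receptor is a pair of Gabbr1 and Gabbr2. Gabbr1 (chr17:37045966-37074305) was 174.7 kb from a LAD of 2552 kb, in a gap of 507.5 kb, the shortest gap of a receptor gene. Gabbr2 measured 329.4 kb and was 661.6 kb from the nearest LAD.

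**Figure D3:**
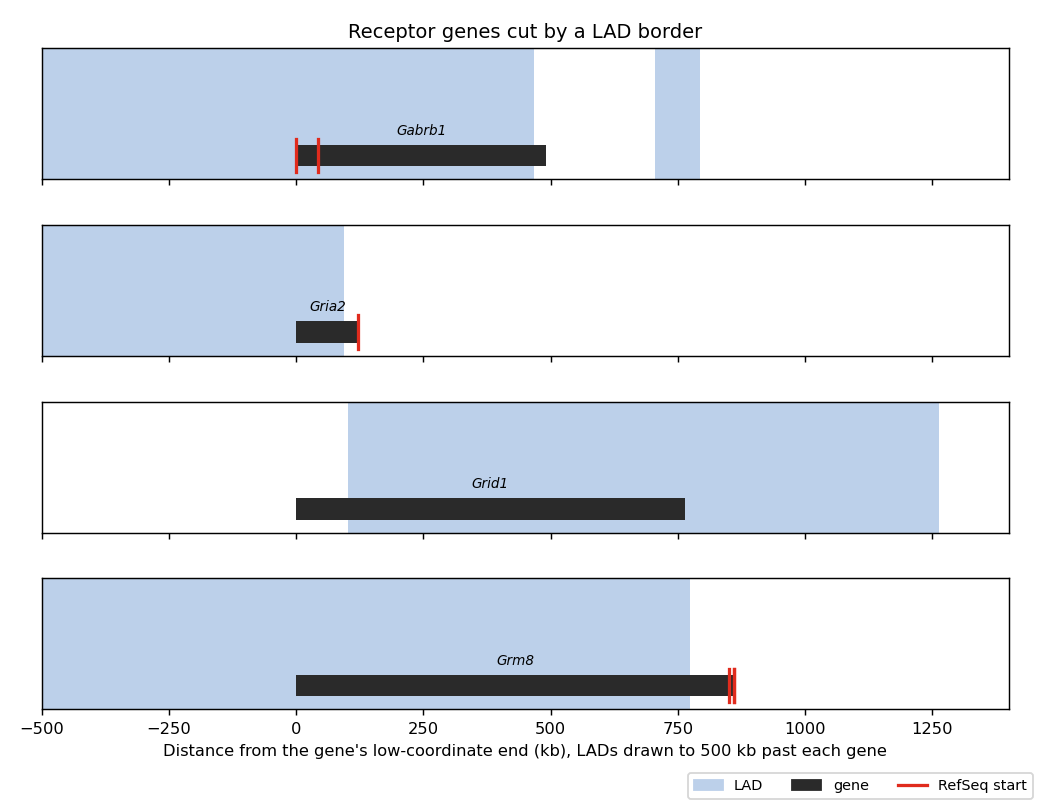
The 4 receptor genes cut by a LAD border, in kb from the low-coordinate end of each gene, with LADs (blue, drawn to 500 kb past each gene), the gene (black) and RefSeq starts (red). The starts of Gria2 and Grm8 lie outside the LAD, both starts of Gabrb1 lie inside, and Grid1 has no matched start.

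RefSeq promoter windows were matched for 32 of the 42 receptor genes, and the start nearest to the gene's upstream end was used. That start was in a LAD in 13 of 32 genes (40.6%), against 23.9% of the 17492 protein-coding genes with a window. Many of the 13 belong to GABA-A sets that share a LAD, and such starts are not independent of each other. Of the 10 genes without a window, 7 lay wholly inside a LAD (Gria1, Gria3, Grik1, Grin2a, Grin2b, Grin3a and Grm5), Grid1 was cut, and Grm4 and Gabrd lay outside, so the 32 genes hold a smaller share inside than the 42. The starts inside were 466.3 to 1556 kb from a border, with a median of 1029 kb. Those outside were 27.0 to 2643 kb away, with a median of 646.9 kb. The listed start of Gabra5 was 81.0 kb into the gene, and those of the other genes were within 5.40 kb of the upstream end.

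Gene length went with placement in the receptor genes. Of the 14 genes under 50 kb, 1 was inside, 0 were cut and 13 outside. Over all protein-coding genes of that length, 23.1% were inside, 1.07% cut and 75.9% outside. Of the 9 receptor genes of 50 to 200 kb, 6 were inside, 1 was cut and 2 outside, where all protein-coding genes had 13.9%, 7.76% and 78.3%. Of the 19 over 200 kb, 12 were inside, 3 cut and 4 outside, where all protein-coding genes had 30.9%, 24.9% and 44.1%. The median length was 277.8 kb for the receptor genes inside and 28.3 kb for those outside, and 17.2 kb for all protein-coding genes. Shares of all genes of a length stand here in place of a test. They include olfactory and vomeronasal receptor genes, without which the midpoint share of all protein-coding genes was 19.1% in place of 23.8%. Shares by length without them are not given here. The part of length in the placement was not tested.

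**Figure D4:**
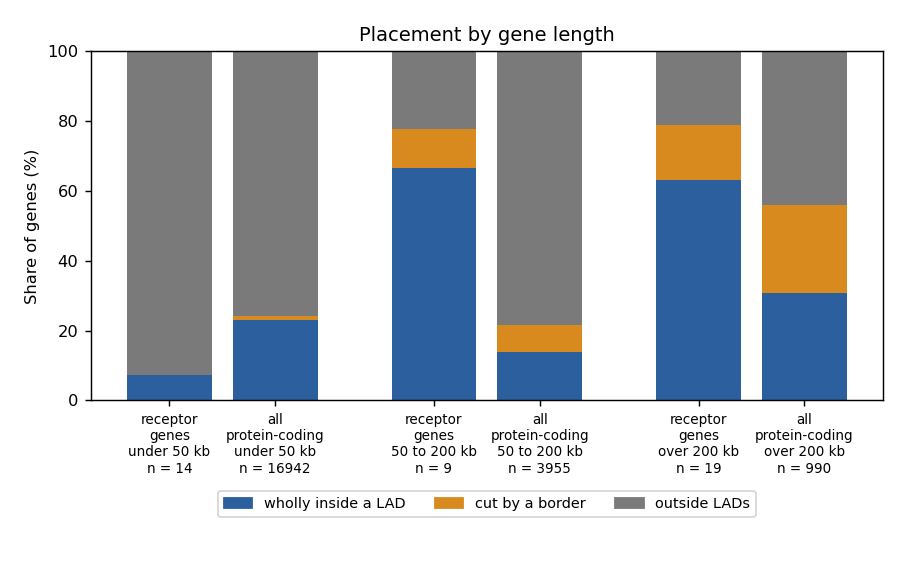
Share of genes in percent that were wholly inside a LAD, cut by a border or outside, for the receptor genes and for all protein-coding genes in 3 classes of gene length. In the 2 longer classes the receptor genes have the larger share inside, 6 of 9 and 12 of 19, and in the shortest class 1 of 14 was inside.

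The surroundings of the receptor genes differed with placement, which in part follows from the placement itself. Within 500 kb on either side of the midpoint, the receptor genes inside had LAD over 61.4% to 100% of the window, with a median of 100%, and a median of 2 other protein-coding genes. Those outside had 0% to 49.3% LAD, with a median of 0%, and a median of 19 other protein-coding genes. For all protein-coding genes the medians were 6.57% and 15 genes. Gabbr1 had the highest LAD share of the genes outside. Grin1 had the most neighbours, 60, and Grm7, Grm8 and Grik2 had none in the window.

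The receptor genes touched 18 LADs, of which 15 held at least 1 whole. These 18 had a median length of 2431 kb, and 15 of them (83.3%) measured at least 1 Mb. The median of all 1437 LADs was 445.0 kb, and 30.3% reached 1 Mb. Longer LADs hold more genes, so lengths were also counted per gene. Over the genes wholly inside, the median LAD measured 2510.0 kb for the 19 receptor genes and 1879 kb for the 4764 protein-coding genes, and 89.5% and 74.4% of them had a LAD of at least 1 Mb.

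Some of these LADs were nearly free of other genes and others held large families. Grm7 and Gria3 were alone by midpoint in theirs, as were the cut genes Gria2 and Grm8. Grm5 shared its LAD with 17 olfactory and 15 vomeronasal receptor genes among 38 protein-coding genes. The LAD of Gabrr3 (chr16:58724482-62731968) held 25 olfactory receptor genes among 31. Grik1 lay near the start of a LAD (chr16:87764390-90116882) with 62 protein-coding genes, 24 of them keratin-associated.

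The CpG content of the promoter windows was compared between starts inside and outside LADs. Observed over expected CpG, the number of CG dinucleotides relative to that expected from the C and G content, ranged from 0.155 to 0.836 over the 13 starts inside LADs, with a median of 0.496. It ranged from 0 to 1.20 over the 19 outside, with a median of 0.641. For all protein-coding genes the medians were 0.188 inside and 0.689 outside. The ranges of the receptor genes overlapped.

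A ratio of at least 0.6 with a GC content of at least 50%, a common mark of CpG islands, was met by 4 of the 13 starts inside (30.8%) and by 11 of the 19 outside (57.9%). Over all protein-coding genes it was met by 13.7% of the starts inside and 55.8% outside. The 4 inside were those of Gria4, Grik2, Gabra2 and Gabrb1. Gabra2 and Gabrb1 share 1 LAD, so the starts inside are fewer separate positions than genes. Gabrb1 overlaps Gabra4, on the opposite strand, at their upstream ends, and the start of Gabra4 was at 0.536. Below 0.3 were the starts of Gabra6, Gabrr3 and Gabrg1 inside and of Gabra3, Gabrr2, Grin3b, Gabrp, Grm6 and Grik5 outside. The window is short, and CpG content elsewhere in the gene was not measured.

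**Figure D5:**
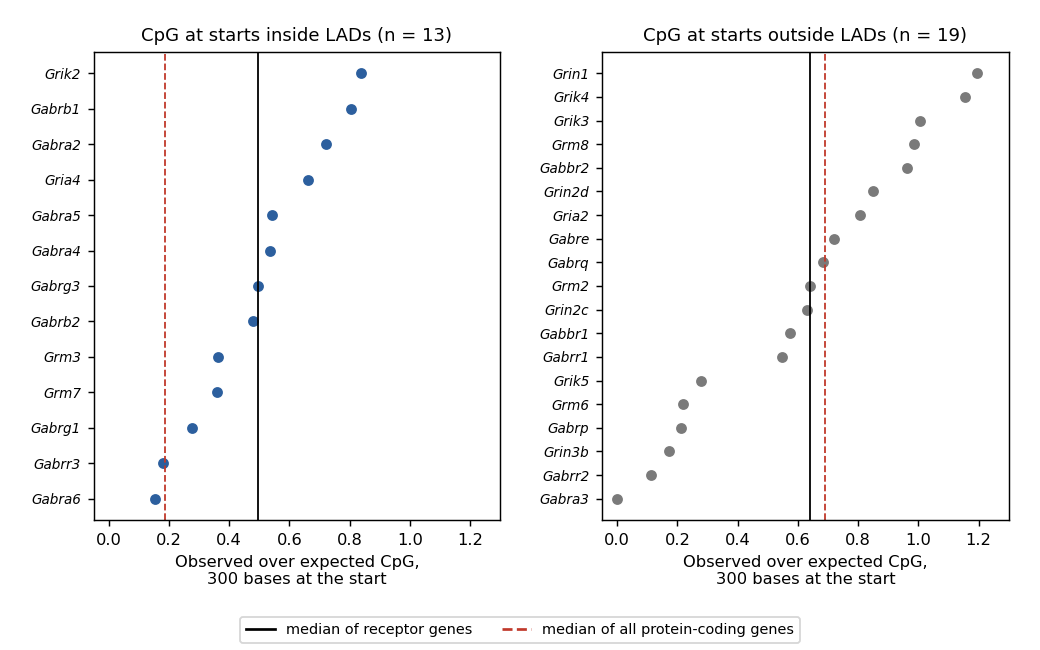
Observed over expected CpG in the 300 bases at the start of 32 receptor genes, with starts inside LADs on the left and outside on the right, the median of the receptor genes (black line) and that of all protein-coding genes with a start on the same side (dashed red). Starts inside have a median of 0.496 against 0.188 for all protein-coding genes, and starts outside 0.641 against 0.689.

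A list of 60 partner genes of these receptors gives the setting. It holds transporters that load or remove the transmitters, enzymes that make or degrade them, auxiliary subunits, scaffolds and the related glycine receptors. Of the 60, 10 were inside, 5 cut and 45 outside, and 14 (23.3%) had their midpoint in a LAD, close to the 23.8% of all protein-coding genes. Of the summed length of the partners, 51.3% was LAD, against 34.1% for all protein-coding genes and 81.4% for the receptor genes. The partner share leans on 1 long gene, Dlg2, which held 1922 kb of the 4947 kb of partner length in LADs. No difference between partners and receptors was tested.

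By function, the midpoint was in a LAD for 2 of 7 genes of glutamate packaging and uptake, for 0 of 5 of GABA packaging and uptake and for 0 of 5 enzymes of transmitter metabolism. It was 4 of 14 for AMPA and kainate auxiliary subunits, 3 of 18 for scaffolds, 3 of 6 for GABA-A and GABA-B auxiliary proteins and 2 of 5 for glycine receptors. The list counts Shisa7 among the AMPA and kainate auxiliary subunits and Shisa8 among the GABA-A and GABA-B auxiliary proteins. Both lay outside LADs, so placing either in the other class would change only the class sizes. None of the scaffold genes was wholly inside. Dlg2, Grip1 and Dlgap1, long scaffold genes, were cut, with 97.4%, 97.0% and 78.9% of their length in a LAD. Kctd16, a GABA-B auxiliary gene, and Glra1, a glycine receptor gene, were cut with 63.9% and 32.1%. The partners deepest inside were Neto1, an auxiliary gene of kainate receptors, at 1661 kb from a border, Glra2 at 690.2 kb, Shisa6, an AMPA auxiliary gene, at 332.5 kb, Glra3 at 290.5 kb and Kctd8, a GABA-B auxiliary gene, at 172.9 kb.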

How the data were processed

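CUT&RUN libraries were aligned with Bowtie2 to mm10, per the submitters' processing notes. The domain caller, its threshold and any use of IgG or spike-in DNA are not given in the sources used here. The authors deposited 1 BED list of 1437 LADs, and its score column held 0 in all 1437 lines. The list was read as the merged Lamin B1 result, which only its name states. Positions are counted from 1.

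Gene positions came from RefSeq (GRCm38.p6). All 21887 placed protein-coding genes served as background, including 757, and 1 receptor gene, that lie before the first or after the last LAD of a chromosome. Placement used whole genes, with midpoints and RefSeq starts beside them, in Python 3.11.15 with pandas 2.3.3 and numpy 2.4.6. The placement code was tested on simulated data. The alternatives changed LAD length, joining, borders, the overlap that counts as inside or outside, and the background genes.

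Receptor genes and partner list were chosen with earlier results of these data known, so nothing was tested for chance. Full values are given for genes cut by a border, neighbours within 1 Mb, and the 5 genes deepest inside, farthest outside and nearest outside. Promoters shown are 1 pair on both sides of borders and the highest and lowest observed over expected CpG. Gria2 and Gabra2 were added after their values were seen. Partners are named where cut or among the 5 deepest, and Shisa7 and Shisa8 to state their class.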

Additional observations from a re-analysis of the deposited data

How the results depend on the processing

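No receptor gene (0 of 42) changed between inside, cut and outside with LADs of at least 100 or 500 kb only, with LADs up to 100 kb apart joined, or with borders moved by 10 kb either way. Of 94 recomputed values, 61 planned and 33 added after the data were seen, 93 stayed within 1.5 times the value reported. The other was the background count of genes with a midpoint in a LAD, which was 15929 for all annotated genes (31.9% of 49943) against 5207 protein-coding genes, by construction, as more genes are counted. Counting genes covered to at least 50% as inside gave 23 in place of 19, by taking in the 4 cut genes, and counting those covered to under 5% as outside gave 19 as before. Without olfactory and vomeronasal receptor genes the background share was 19.1% of 20424.

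Among the added settings, 4 receptor genes changed. Joining LADs up to 250 kb apart placed Gabrb1 inside. Trimming LADs by 50 kb at both ends cut Gria3, and extending them by 50 kb placed Gabrb1 and Gria2, with its start, inside and cut Grik3, so that 14 starts in place of 13 were in a LAD. The genes wholly inside then numbered 18 to 21 and the covered share of the summed length of all 42 receptor genes was 79.3% to 83.0%. Trimming by 50 kb also left the midpoint of Gria2 outside, so that not all AMPA receptor genes had it in a LAD. The receptor genes with their midpoint inside were then 22 in place of 23, and the ionotropic ones 9 in place of 10. Partner genes with their midpoint inside numbered 12 to 16 over the added settings.

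No paired analysis was possible because the LADs are 1 merged list without values per replicate, and neither Lamin B1 library was left out in turn. The depth behind each border is unknown.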

Other observations

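The gaps and LADs of receptor genes on the same chromosome were set side by side. On chromosome 11, the gap of 6085 kb that holds Grm6 ended at the border where the LAD of Gria1 began, at position 55577998, 4712 kb past Grm6, and the same border cut Glra1. On chromosome 17, the gaps of Grm4 and of Gabbr1 were separated by 1 LAD of 272.5 kb. On chromosome 4, receptor genes lay both in gaps (Gabrr1, Gabrr2, Gabbr2, Grik3 and Gabrd) and in a LAD (Grin3a). The gap of Gabbr2 and the LAD of Grin3a were not adjacent. These positions are given as values and were not tested.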
